A study of Mus musculus with 5 samples.

Results

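On day 3 of adipocyte differentiation, 797 non-dividing 3T3-L1 cells held 16000 CPM or more of Fabp4 RNA. CPM stands for counts per 1000000, the UMIs of a gene divided by all UMIs of the cell or population and multiplied by 1000000, and a UMI (unique molecular identifier) marks 1 captured RNA molecule. Fabp4 encodes the fatty acid carrier of adipocytes. The cells were chosen from both day 3 libraries by 5 limits on each barcode: at least 500 detected genes, no more than 20% mitochondrial UMIs, at least 10000 UMIs, under 2000 CPM summed over 10 genes of cell division, and the Fabp4 limit. They were 797 of 5734 non-dividing day 3 cells and of 21895 barcodes in the 5 libraries of the series. The untreated library gave 284 of 2778 non-dividing cells (10.2%, exact 95% interval 9.12% to 11.4%), and the P-G3 library gave 513 of 2956 (17.4%, 16.0% to 18.8%). Fabp4 and the division genes chose these cells, so their levels and the shares that follow from the limits are given as descriptions.

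3T3-L1 is a line of mouse fibroblasts that can turn into fat cells, grown alone in a dish without the blood vessels, immune cells or nerves of fat tissue. All libraries came from this line. The day 0 library came from confluent cells before induction. The day 3 and day 6 libraries came from cultures induced with dexamethasone, insulin and isobutylmethylxanthine and then kept with insulin, either without further treatment or with 10 µg/mL of P-G3, a positively charged PAMAM polymer added from induction on. Each of the 5 groups had 1 library. No difference between groups therefore has a replicate check, no test was made, and all intervals cover counting error only.

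Adipogenesis begins when a hormone cocktail switches on the transcription factors C/EBP beta and delta, which in turn raise PPAR gamma and C/EBP alpha. These last factors keep each other active and switch on the genes of fatty acid uptake, triglyceride assembly and lipid storage, while fibroblast genes for collagen and contraction are shut down. In this line the cells first pass through rounds of division, and the adipocyte genes then come on over several days, in some cells earlier than in others.

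The 5 libraries held between 3247 and 5719 barcodes and between 92556168 and 179449285 UMIs. The chosen cells held many UMIs. Their median was 61162 UMIs in the untreated library (lowest 11225, highest 155868) and 69888 with P-G3 (lowest 10117, highest 230026), against 29518 and 29464 in non-dividing cells of the same libraries under 4000 CPM of Fabp4, called Fabp4-low cells below. Between 4 and 7 cell barcodes were shared by each pair of libraries, and no shared barcode belonged to a chosen cell in both. No doublets were removed, and 56 of the untreated and 87 of the P-G3 cells were among the 5% of their library's cells with most UMIs. Levels of populations below are CPM of the UMIs summed over their cells, and log2 ratios were taken after adding 1 CPM to both levels.

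Fabp4 in single chosen cells ran from 16026 to 97848 CPM in the untreated library, with a median of 26163, and from 16003 to 76638 with P-G3, with a median of 25430. The limit cuts a continuous range and does not separate clusters. In the band from 14000 to 16000 CPM just outside there were 49 untreated and 79 P-G3 cells, and in the band from 16000 to 18000 just inside there were 38 and 69. On day 0 none of 2867 non-dividing cells reached the limit, which allows a share of up to 0.129%. On day 6 the same limits took 756 of 1515 untreated cells (49.9%, 47.4% to 52.5%) and 1213 of 1852 P-G3 cells (65.5%, 63.3% to 67.7%). Among the kept cells the share was thus higher on day 6 than on day 3 in both arms, and higher with P-G3 on both days. The limits on genes, mitochondrial UMIs and total UMIs kept 1541 of 5282 untreated and 1881 of 5719 P-G3 barcodes on day 6. On day 3 they kept 3393 of 3693 and 3675 of 3954. The part of these limits in the shares was not tested.

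**Figure D1:**
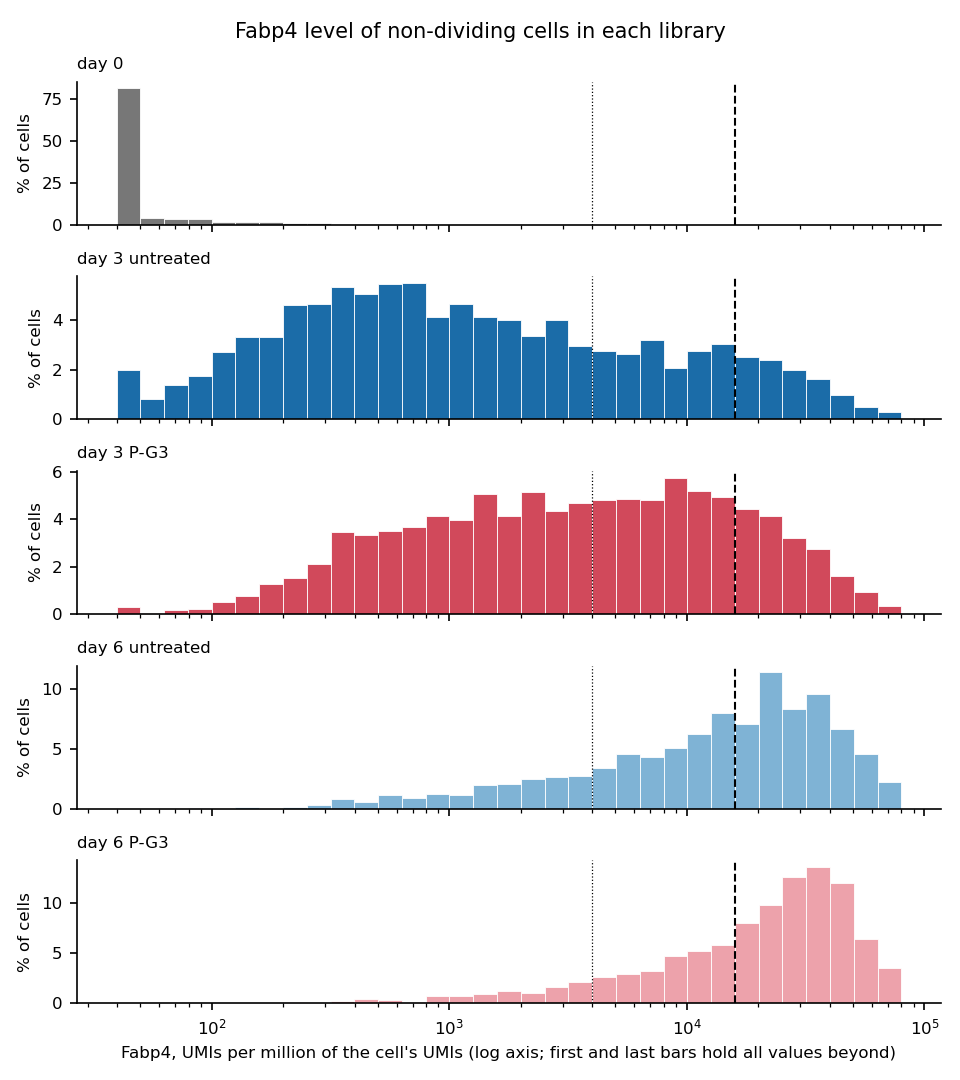
Share of non-dividing cells (vertical axes, % of cells) by Fabp4 level in CPM of the cell (horizontal log axis, the first and last bars holding all values beyond) in the 5 libraries, with the limits of 4000 (dotted) and 16000 CPM (dashed) as lines. No day 0 cell lies past the upper limit, 284 untreated and 513 P-G3 cells do on day 3, and 756 and 1213 do on day 6, with no gap in the distributions at the limit.

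The chosen cells carried RNA of the early adipocyte markers Acsl1 and Agpat2. Acsl1, which activates fatty acids to acyl-CoA, reached 1412 CPM in the untreated and 1084 CPM in the P-G3 library, against 47.1 and 33.9 CPM in Fabp4-low cells and 10.3 CPM in non-dividing day 0 cells. Agpat2, an acyltransferase of triglyceride assembly that is lost in a form of lipodystrophy, stood at 635 and 648 CPM, against 49.0 and 50.9 CPM in Fabp4-low cells and 34.8 CPM on day 0. For both genes the chosen cells were highest in both libraries, and the Fabp4-low cells lay between them and day 0. Fabp4 lies on chromosome 3 (10204088 to 10208576, minus strand, GRCm38), Acsl1 on chromosome 8 (46471037 to 46536051, plus strand) and Agpat2 on chromosome 2 (26593057 to 26604417, minus strand).

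All 12 adipocyte markers listed for the check of the label were higher in the chosen cells than in Fabp4-low cells of the same library, in both libraries. Adipoq, the gene of the hormone adiponectin, was at 158 and 209 CPM against 2.85 and 5.58 CPM. Cidec, which fuses lipid droplets, was at 432 and 373 CPM against 7.87 and 9.74 CPM, and Plin1, which coats them, at 141 and 127 CPM against 6.24 and 8.16 CPM. Pparg, the master regulator, differed less, at 177 and 203 CPM against 53.5 and 63.6 CPM. Cebpa, its partner, was at 98.1 and 71.4 CPM against 9.42 and 9.20 CPM. Slc2a4, the insulin-regulated glucose transporter, was still low in absolute terms, at 9.55 and 10.6 CPM against 0.685 and 0.960 CPM. Of 9 preadipocyte markers, Dlk1, Pdgfra, Pdgfrb, Ly6a, Thy1, Col1a1, Lox and Tagln were lower in the chosen cells of both libraries, and Cd34 stayed under 5 CPM in every population compared. Dlk1, a membrane protein that holds back adipogenesis, was at 129 and 165 CPM against 763 and 761 CPM, and 2142 CPM on day 0.

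Counted over all genes with 20 CPM or more in either population, 506 of 5829 were 2-fold or more higher in the chosen cells than in Fabp4-low cells of the untreated library (8.68%) and 600 were 2-fold or more lower (10.3%), with median-of-ratios scaling 662 and 521. Without a size limit, 51.9% of genes were higher in the chosen cells of the untreated library. In the P-G3 library 466 of 5111 were higher (9.12%) and 401 lower (7.85%). There, 60.2% were higher at any size. The cells were chosen by Fabp4, so nothing is read from these counts. Of the higher genes 398 were shared, 78.7% of the untreated list and 85.4% of the P-G3 list, and of the lower genes 378 were shared, 63% and 94.3%. No gene was 2-fold higher in the chosen cells of one library and 2-fold lower in those of the other.

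Genes of fat handling and nuclear genes of mitochondria were mostly higher in the chosen cells. Lists hold the genes with 20 CPM or more in either population, so a member that passed only where it is high had to differ, and the counts and medians are descriptions. Of the fatty acid uptake and binding genes, a list that holds Fabp4 itself, 7 of 8 were higher untreated (median log2 ratio 2.75) and 7 of 7 with P-G3 (2.42), among them Cd36, a fatty acid transporter, at 229 and 180 CPM. Of the triglyceride assembly genes 11 of 12 and 10 of 11 were higher, led by Gpd1, which makes the glycerol backbone (log2 ratio 4.99 and 4.67), and Dgat2, which adds the last fatty acid (4.57 and 4.07). All 38 nuclear genes of the respiratory chain at that level were higher in both libraries (medians 0.80 and 0.61), with the electron carrier Cycs at 1645 and 1655 CPM against 314 and 373 CPM. The 13 genes encoded by mitochondrial DNA split, with 8 higher untreated (median 0.21) and 6 with P-G3 (-0.06). Genes of the citric acid cycle were higher in 24 of 25 in both, led by Idh3a, a subunit of isocitrate dehydrogenase (2.46 and 2.38). Genes of the ATF4 programme, which answers amino acid shortage, were higher in 14 of 15 and 15 of 16 (medians 1.11 and 1.17). Over all genes the medians were 0.04 and 0.15.

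Fibroblast programmes were low in the chosen cells. Matrix genes were lower in 22 of 23 untreated (median log2 ratio -2.49) and in 22 of 22 with P-G3 (-2.11). Over all genes 51.9% and 60.2% were higher in the chosen cells. Members that passed 20 CPM only in Fabp4-low cells had to be lower, so the list counts and medians are descriptions. Lox, which crosslinks collagen, was at 18.1 and 6.67 CPM against 325 and 118 CPM in Fabp4-low cells. Col1a1, the main collagen chain, was at 44.0 and 32.6 CPM against 715.5 and 374.5 CPM. The contractile genes Acta2 (-3.80 and -3.51) and Tagln (-4.18 and -3.42) and the heparin-binding growth factor Ptn (-4.82 and -4.37) were far lower as well. Cyclins and their inhibitors split, with 6 higher and 9 lower untreated and 7 higher and 8 lower with P-G3. Ccnd1, the cyclin that drives cells out of G1, was at 46.6 and 47.9 CPM against 311 and 177 CPM, and Cdkn2c, an inhibitor of its kinase partners, was at 190 and 159 CPM against 52.6 and 45.6 CPM.

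Markers of most other cell types were nearly absent. Summed over 10 macrophage genes the chosen cells held 3.20 and 2.14 CPM, with 6 genes at 0 in each. Summed levels of 9 endothelial genes were 6.35 and 9.05 CPM (6 and 4 genes at 0), those of 10 skeletal muscle genes 3.60 and 4.82 CPM (8 and 7 at 0), and those of 8 neural genes 3.43 and 2.04 CPM (5 and 4 at 0). The 11 genes of bone and cartilage summed to 31.0 and 29.0 CPM (5 at 0 in each), most of it Sox9, and to 79.1 and 72.7 CPM in Fabp4-low cells. The 7 epithelial genes were far higher in the chosen cells, at 42.3 and 55.5 CPM (2 and 3 at 0) against 2.47 and 3.30 CPM in Fabp4-low cells, and the part of these genes in the other results was not tested. Most of that was keratins. Krt14 stood at 28.2 and 28.8 CPM against 0.579 and 0.820 CPM, and after thinning every cell to 10000 UMIs it was detected in 20.1% of untreated and 17.5% of P-G3 chosen cells, against 0.197% and 0.646% of Fabp4-low cells.

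**Figure D2:**
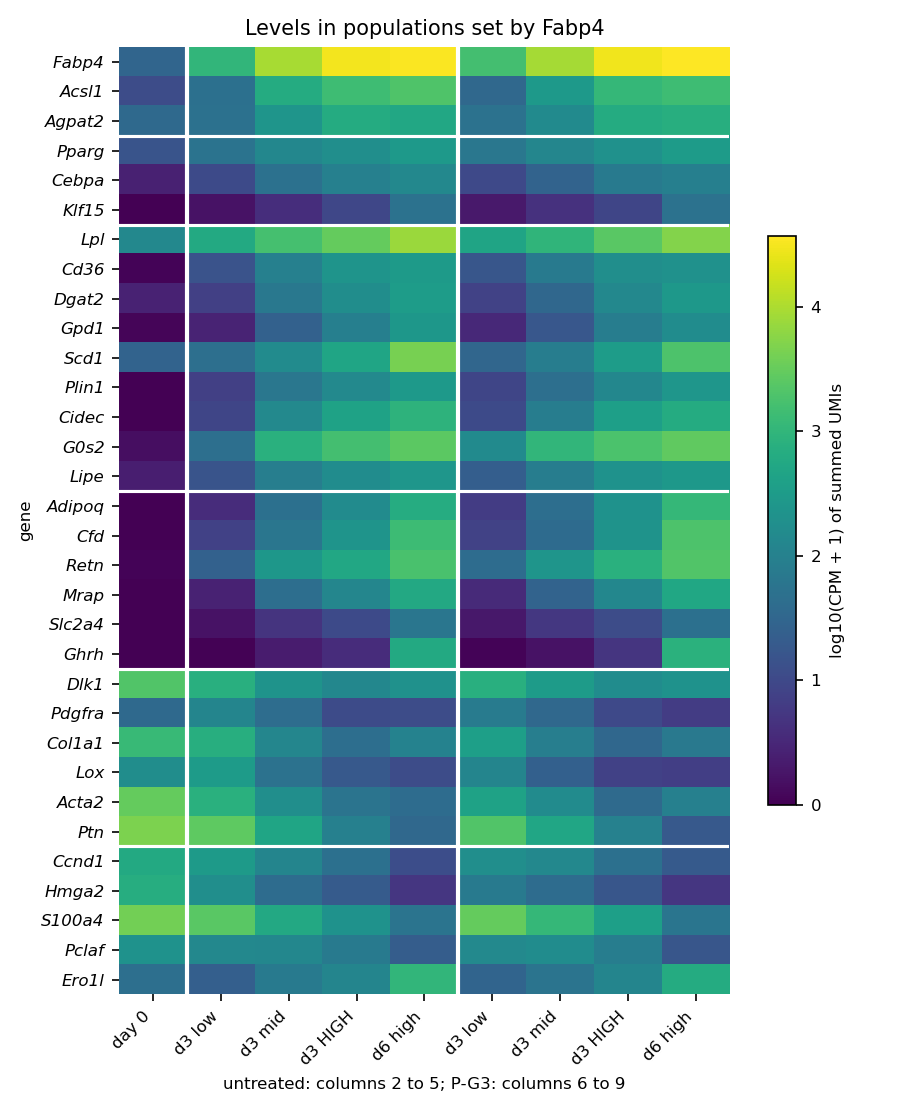
Levels of named genes (rows) as log10(CPM + 1) of summed UMIs (colour) in day 0 cells and in cells low (under 4000 CPM of Fabp4), mid (4000 to 16000) and high (16000 or more) in Fabp4, untreated in columns 2 to 5 and with P-G3 in columns 6 to 9. Adipoq, Cidec and Agpat2 are brighter and Lox and Col1a1 darker in the day 3 high columns than in the low ones, and the mid cells lie between, with Adipoq at 47.4 and 43.4 CPM.

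Reference promoters give the sequence context of the genes that set these cells apart. They are shown for Agpat2, which marks the cells, and for Adipoq, among the genes most different from Fabp4-low cells. Plin1, which coats lipid droplets, and Cebpa, the regulator, are shown as well. Each line is the 150 bases just before the annotated start, 5′ to 3′ in the direction of the gene, from RefSeq on GRCm38.p6. Capitals mark matches to the motifs TATAAA (the TATA box), CCAAT (the CCAAT box) and TTGCNNAA (a pattern of sites bound by C/EBP proteins). The same holds for AGGTCA (a nuclear receptor site) and the direct repeat of that site spaced by 1 base. All motifs were searched on both strands over 250 bases.
Agpat2 (chr2:26604418-26604567, minus strand): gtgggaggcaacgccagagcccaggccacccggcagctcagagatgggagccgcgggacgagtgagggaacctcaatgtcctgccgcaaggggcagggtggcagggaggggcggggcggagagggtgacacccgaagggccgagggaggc
Adipoq (chr16:23146386-23146535, plus strand): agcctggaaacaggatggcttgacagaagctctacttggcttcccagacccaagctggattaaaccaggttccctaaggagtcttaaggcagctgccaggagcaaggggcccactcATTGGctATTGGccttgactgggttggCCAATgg
Plin1 (chr7:79732777-79732926, minus strand): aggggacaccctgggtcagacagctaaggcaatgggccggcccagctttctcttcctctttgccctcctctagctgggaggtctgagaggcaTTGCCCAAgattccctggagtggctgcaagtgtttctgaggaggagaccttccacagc
Cebpa (chr7:35119143-35119292, plus strand): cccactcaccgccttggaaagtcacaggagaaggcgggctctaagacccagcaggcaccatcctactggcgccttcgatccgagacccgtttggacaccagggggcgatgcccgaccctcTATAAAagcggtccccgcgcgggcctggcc
The Agpat2 window held none of the motifs, and 69.2% of its 250 bases were G or C. Adipoq held CCAAT on the reverse strand at bases 34 to 30 and 27 to 23 before the start and on the forward strand at 7 to 3. Plin1 held TTGCNNAA at 58 to 51 and again at 187 to 180, outside the printed stretch. The GENCODE annotation starts Plin1 at base 79732903, inside the printed stretch, so by that annotation the match at 58 to 51 lies within the gene. Cebpa held TATAAA at 30 to 25. Over all 32851 RefSeq promoters of the same length, 12.4% held TATAAA, 33.8% CCAAT, 9.56% TTGCNNAA, 14% AGGTCA and 0.338% the direct repeat. The motifs do not overlap one another here, and a match is a description of letters, not of binding. Of 16 genes looked up, 11 had an entry. Among those not shown, Cfd, Retn and G0s2 held none of the motifs. Tmem120a and Acsl1 held CCAAT, Cidec held TTGCNNAA and Adig held AGGTCA, for Acsl1 and Cidec in only 1 of 2 entries.

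Among the chosen cells the adipocyte genes were uneven. After thinning to 10000 UMIs per cell, Acsl1 was detected in 91.2% of untreated and 88.3% of P-G3 cells (98.9% and 97.9% without thinning), against 20.3% and 20.4% of Fabp4-low cells. Agpat2 was detected in 87.0% and 81.7%, against 33.7% and 32.0%. Adipoq was detected in only 57.4% and 56.9% (78.5% and 80.3% without thinning), against 2.36% and 3.1% of Fabp4-low cells and none of the day 0 cells. Adipsin, encoded by Cfd, behaved alike at 58.5% and 58.1%, against 3.00% and 4.78%. RNA free in the droplets gives UMIs in cells that do not make a gene, and the low shares in Fabp4-low cells, whose median depth before thinning was 29518 and 29464 UMIs, set the level below which a share is not read. Retn was detected in 84.2% and 87.1% of the chosen cells, against 13.7% and 19.7%.

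To rank the unevenness, the variance of thinned counts beyond sampling was divided by the squared mean, giving an excess squared coefficient of variation. It was computed for 1295 genes, with medians of 0.125 untreated and 0.115 with P-G3. Fabp4 stood at 0.192 and 0.170. The most uneven gene was Ero1l, an oxidase of protein folding also raised by low oxygen, at 4.84 and 6.43. The 10% of cells with most Ero1l held 3 or more thinned UMIs while the median cell held none, in both libraries. Genes were ranked by the smaller of their values in the 2 libraries. By that rank Dgat2 came next (2.85 and 2.42), Scd1, the desaturase that makes oleic acid (2.23 and 2.34), and Cfd (1.99 and 1.88). Agpat2, at 1.39 and 1.58, was also among the first 15, although it marks these cells as a group. In single cells Agpat2 ran from 0 to 6588 CPM untreated with a median of 343, and from 0 to 5734 with P-G3 with a median of 312. Scd1 ran from 0 to 8217 with a median of 217, and from 0 to 3918 with a median of 144.

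The other genes among the first 15 were of varied kinds. The small adipocyte protein Adig stood at 1.63 and 1.86 and the lipocalin Lcn2 at 4.74 and 1.61. The metallothionein Mt2, which binds zinc, stood at 1.68 and 3.46, the calcium-binding S100a4 of fibroblasts at 1.92 and 1.70, and the chromatin protein Hmgb2 of cycling cells at 2.84 and 1.68. Akr1b3, an aldose reductase, stood at 2.87 and 1.52, and Wfdc21, Col3a1, Col1a2 and the unnamed gene model Gm26917 completed the list. Lipid genes, stress genes and fibroblast genes were thus all among the most uneven.

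Which genes went together was described by Spearman correlations of thinned counts across the chosen cells, over 284 untreated and 513 P-G3 cells. The cells of each library share its preparation, and the UMI total of the cell still moves with some genes after thinning, so the values are descriptions. Among 2205 genes, ranked by the weaker of their values in the 2 libraries, the one most like Acsl1 was Lpl, the lipase that frees fatty acids for uptake (0.69 untreated, 0.78 with P-G3), followed by Tmem120a, a nuclear envelope protein of adipocytes (0.60 and 0.64). Acsl1 itself correlated with the UMI total of the cell at 0.31 and 0.42, and Lpl at 0.21 and 0.45. By the same rank the most opposite gene to Acsl1 was the calcium-binding protein gene S100a6 (-0.54 and -0.56). Agpat2 was closest to Lpl (0.54 and 0.62), then Tmem120a (0.54 and 0.61), Adig (0.51 and 0.53) and Acsl1 (0.50 and 0.65), and most opposite to the matrix proteoglycan Bgn (-0.46 and -0.45). Fabp4, whose range the limit cuts, stood at 0.35 and 0.39 with its closest gene by that rank, Fabp5, a related carrier, and at 0.38 and 0.30 with Cfd.

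Other pairs held within narrower themes. Scd1 went with its paralog Scd2 (0.59 and 0.51), Cfd with Adipoq (0.41 and 0.44), Ero1l with Bnip3, a mitophagy gene raised by low oxygen (0.34 and 0.29), Mt1 with Mt2 (0.66 and 0.69) and Col1a2 with Bgn (0.51 and 0.48). In day 6 cells past the same Fabp4 limit the Scd1 and Scd2 pair kept values of 0.65 and 0.53 and the Acsl1 and Lpl pair 0.56 and 0.63. Agpat2 with Lpl stood at 0.16 and 0.26 there, lower than on day 3 in both arms, and Agpat2 with Adig at 0.11 and 0.24.

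**Figure D3:**
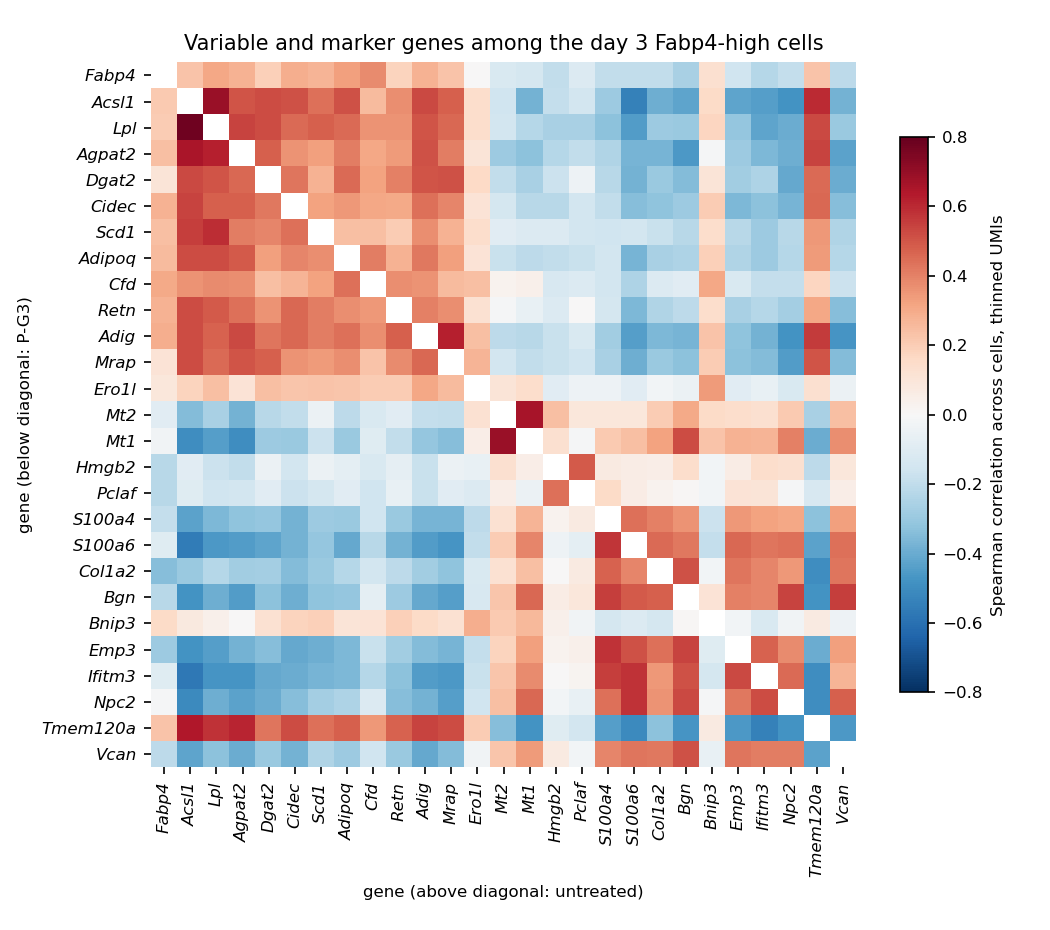
Spearman correlations between genes across the chosen cells on counts thinned to 10000 UMIs per cell (colour), the 284 untreated cells above the diagonal and the 513 P-G3 cells below it. Acsl1, Agpat2 and Lpl correlate with each other (0.50 to 0.78), and Acsl1 with S100a6 is negative in both libraries (-0.54 and -0.56).

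Within the chosen cells, some adipocyte genes were higher where Fabp4 was higher, and others followed it weakly. Across cells Dgat2 correlated with Fabp4 at 0.19 untreated and 0.10 with P-G3, and Mrap at 0.23 and 0.11. Cfd stood at 0.38 and 0.30. In the untreated library Adipoq was at 80.2 CPM in cells from 16000 to 18000 CPM of Fabp4, 94.6 CPM from 18000 to 24000, 160.1 CPM from 24000 to 32000 and 239 CPM above. With P-G3 the same bands gave 122, 174, 182 and 289 CPM. Cfd ran from 111 to 385 CPM and from 81.4 to 344 CPM between the lowest and the highest band. Agpat2 went from 477 to 984 CPM untreated, with a lower value of 372 CPM in the second band, and from 308 to 870 CPM with P-G3. Ccnd1 took the opposite course, from 75.4 to 20.9 CPM and from 70.8 to 31.2 CPM. Just outside the limit, from 14000 to 16000, Agpat2 stood at 432 and 247 CPM and Adipoq at 76.5 and 87.2 CPM. The values just inside were 477 and 308 CPM for Agpat2 and 80.2 and 122 CPM for Adipoq, nearer in the untreated library than with P-G3. The bands are cut on Fabp4, and the median UMIs per cell were also higher at the upper end, at 58146 in the lowest and 64048 in the highest band untreated and at 62266 and 75753 with P-G3.

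Between the P-G3 and the untreated library, few genes of the chosen cells differed by 2-fold. Of 5148 genes with 20 CPM or more in either library, 2 were 2-fold or more higher with P-G3 (0.0389%) and 13 were 2-fold or more lower (0.253%). Under the same count the Fabp4-low cells had 5 higher (0.0927%), Ankrd37, G0s2, Hsd11b1, Mif and Sncg, and 87 lower (1.61%) of 5391. The 2 higher genes, named after their values were seen, were Spp1, which encodes osteopontin, at 14.9 and 40.8 CPM (log2 ratio 1.40, 95% interval of the plain ratio 1.27 to 1.65), and Pip, at 7.95 and 26.1 CPM (1.60). The split between higher and lower depended on the scaling. With TMM or median-of-ratios scaling 10 genes were 2-fold higher and 6 lower, and without a size limit 34% of genes were higher on the total count but 58.5% with TMM and 57.9% with median of ratios. The median gene stood at -0.120 on the total count, 0.072 with TMM and 0.065 with median of ratios, and in the Fabp4-low cells, where 28.7% of genes were higher, at -0.227 on the total count.

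Library and transcript length also moved with this comparison. Across genes the log2 ratio was lower for longer transcripts (Spearman -0.619), with a median of 0.085 in the bin of shortest transcripts and -0.478 in the bin of longest. The same correlation was -0.685 in Fabp4-low cells. List values below are given beside those after taking away the median of genes of like length. That step also brings the median of all genes to 0.000. The part of length in single genes was not tested.

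Fabp4 was at 30259 and 29743 CPM (log2 ratio -0.03), and since the same limit chose the cells in both libraries nothing is read from it. Agpat2 was at 635 and 648 CPM (0.03, interval -0.002 to 0.063), and Acsl1 was lower with P-G3, at 1412 and 1084 CPM (-0.38, interval -0.40 to -0.36). Such intervals leave out the choice of scaling, and with TMM the ratios of 75 of 76 named genes fell outside theirs. Adipokines split. Adipoq was higher with P-G3 (158 and 209 CPM, 0.40, interval 0.34 to 0.46), as was Retn, the gene of resistin (552 and 789 CPM, 0.51), while Cfd was nearly level (230 and 218 CPM, -0.08). C3, the complement component, was lower (293 and 144 CPM, -1.02), as was Lcn2 (229.5 and 136 CPM, -0.75).

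Glycolysis genes all lay on 1 side, while over all genes 34% were higher with P-G3 (median -0.120). All 14 of them at 20 CPM or more were higher with P-G3, with a median log2 ratio of 0.36 on the total count and 0.44 after subtracting the length trend. Gapdh was at 3212 and 5477 CPM (0.77), Eno1 at 219 and 418 CPM (0.93) and Ldha, which makes lactate, at 1040 and 1631 CPM (0.65). Gapdh and Eno1 have near-identical copies in the genome that counting can confuse. Fabp4-low cells gave 15 of 15 with a median of 0.42, so genes of this list were higher with P-G3 in both populations. Hypoxia-responsive genes were higher in 10 of 13 (median 0.41, length-adjusted 0.43), led by Ankrd37 (0.66) and Hilpda, an inhibitor of triglyceride breakdown (0.55). Mif, which encodes a cytokine, was at 487 and 923 CPM (0.92). Cholesterol synthesis genes were higher in 15 of 20 (0.17, adjusted 0.31), with Fdps at 200 and 319 CPM (0.67) but Cyp51 lower, at 136.5 and 94.5 CPM (-0.53).

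Lists of fat storage and insulin signalling had medians below zero on the total count and closer to zero after subtracting the length trend. The subtraction also moved the median of all genes from -0.120 to 0.000, so part of the change is shared by all genes. Over all genes 3398 of 5148 were lower, with a median of -0.120 on the total count. Triglyceride assembly genes were lower in 10 of 12 (median -0.34, adjusted -0.04), fatty acid synthesis genes in 12 of 14 (-0.28, adjusted -0.002) and insulin signalling genes in 11 of 12 (-0.33, adjusted -0.05). Fatty acid uptake genes were lower in 7 of 7 (-0.22, adjusted -0.12), no nearer to the median of all genes after the subtraction than before. Thrsp, a regulator of lipogenesis, was at 71.5 and 42.3 CPM (-0.74) and Scd1 at 471 and 331 CPM (-0.51). The transcription factor list (3 higher, 9 lower, median -0.19) turned to 0.007 under TMM scaling, and the lipid droplet list (4 higher, 7 lower, -0.15) to 0.04. On the total count both lists lay near the median of all genes. Pparg (177 and 203 CPM) was slightly higher with P-G3 (0.20), and Cebpa (98.1 and 71.4 CPM) was lower (-0.45).

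Among genes with 50 CPM or more, the lowest with P-G3 were of mixed function. Rhou, a small GTPase of cell shape, was at 57.2 and 14.9 CPM (-1.87, interval -2.09 to -1.79), and Trp53inp1, a p53-induced gene linked to autophagy, at 51.1 and 21.3 CPM (-1.22). Plxnd1, a semaphorin receptor, was at 56.2 and 26.6 CPM (-1.05), and Ghr, the growth hormone receptor, at 101 and 53.1 CPM (-0.92). Below that level Car3, a carbonic anhydrase of fat and muscle named after its values were seen, was at 36.2 and 6.99 CPM (-2.22). Id3, an inhibitor of helix-loop-helix factors, was at 193 and 100.3 CPM (-0.94). C3, Egr1, Man2b1 and Rhou were 2-fold lower with P-G3 both in the chosen and in the Fabp4-low cells, which is 30.8% of the list of 13 and 4.60% of the list of 87. The 9 basement membrane genes were all lower (median -0.48, adjusted -0.09), beside 3398 of 5148 over all genes. Emp3, a small membrane protein, was higher (57.3 and 112 CPM, 0.96), as was S100a4 (208 and 372 CPM, 0.84), and both were far higher still in Fabp4-low cells (512.5 and 594 CPM, and 2442 and 3071 CPM).

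**Figure D4:**
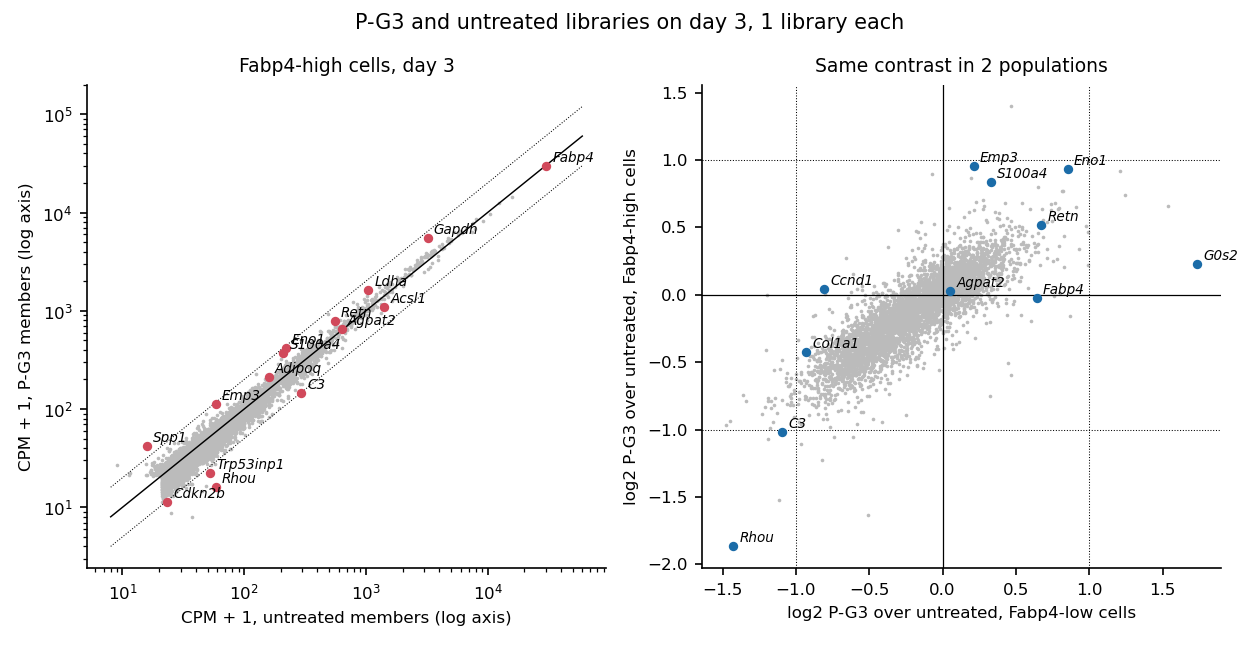
Left, level of each gene with 20 CPM or more in the chosen cells, P-G3 (vertical) against untreated (horizontal), as CPM + 1 on log axes, with the line of equality and dotted lines at 2-fold. Right, the log2 ratio of P-G3 over untreated in the chosen cells (vertical) against that in Fabp4-low cells of the same libraries (horizontal), each point being a gene and the dotted lines 2-fold. Most genes lie within 2-fold in both panels, Rhou (-1.87) and C3 (-1.02) lie below it in both populations, and G0s2 lies past it in Fabp4-low cells (1.74) but not in the chosen cells (0.23).

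The same counts in narrower ranges of cells also gave few 2-fold genes. Without the 8 untreated and 27 P-G3 cells under 1% mitochondrial UMIs there were 2 higher and 12 lower genes. In cells from 16000 to 24000 CPM of Fabp4 (119 and 226 cells) there were 6 and 28, at 24000 or more (165 and 287 cells) 5 and 16, and in cells with 40000 to 90000 UMIs (215 and 327 cells) 13 and 18.

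The chosen cells were next set against day 6 cells past the same Fabp4 limit, and many genes differed by 2-fold. Most day 6 barcodes fell outside the limits on genes, mitochondrial UMIs or total UMIs and are left out here. Of 5647 genes, 327 were 2-fold or more higher on day 6 in the untreated arm (5.79%) and 88 lower (1.56%), and without a size limit 56.8% were higher. In the P-G3 arm 255 of 4998 were higher (5.1%) and 127 lower (2.54%), and 49.9% were higher at any size. The arms shared 189 of the higher genes (57.8% and 74.1% of each list) and 70 of the lower (79.5% and 55.1%), and none went 2-fold in opposite directions. Fabp4, whose limit was the same on both days, was at 33760 and 36581 CPM on day 6 (0.16 and 0.30). Agpat2 was at 533 and 734 CPM (-0.25 and 0.18), lower in 1 arm and higher in the other. Acsl1 was higher in both, at 2015 and 1420 CPM (0.51 and 0.39).

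Several secreted products and receptors were higher on day 6. Ghrh, the gene of growth hormone-releasing hormone, was at 2.74 and 4.12 CPM on day 3 and 591 and 815 CPM on day 6 (log2 ratio 7.31 and 7.32). It was detected in 1.76% and 2.73% of thinned chosen cells on day 3 and 41.7% and 51.0% on day 6. Adipoq was at 669 and 1082 CPM on day 6 (2.07 and 2.37) and detected in 91.3% and 94.0% of thinned cells, and Cfd was at 1324 and 1975 CPM (2.52 and 3.17). Apoc1, a lipoprotein component, stood at 4.56 and 3.79. Cxcl12, a chemokine of the same list of secreted products, was lower (-0.18 and -0.42), and Angptl4, an inhibitor of Lpl, was nearly level (0.31 and -0.01). Of the receptors, Ffar4, the sensor of long-chain fatty acids, was at 2.46 and 2.22 CPM on day 3 and 51.7 and 36.4 CPM on day 6. Mrap, the partner of the ACTH receptor, was at 123.5 and 127 CPM on day 3 and 564 and 519 CPM on day 6, so it was already present on day 3, while the adiponectin receptor Adipor2 was nearly level (0.09 and 0.08). Ghrh, Apoc1 and Ffar4 passed 20 CPM only on day 6 and so had to differ, and no count or median of their lists is given.

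Metabolic groups were higher on day 6 to different degrees. Their counts and medians are over genes with 20 CPM or more on either day and are descriptions for the same reason. Over all genes 56.8% and 49.9% were higher, with medians of 0.07 and -0.001. Fatty acid synthesis genes were higher in 15 of 17 and 16 of 17 (medians 0.88 and 0.74), with Scd1 going from 471 to 4240 CPM untreated and from 331 to 1915 CPM with P-G3. Genes that break down branched-chain amino acids were higher in 17 of 17 and 16 of 17 (0.82 and 1.04), led by Dbt (2.08 and 1.76) and Bcat2 (1.73 and 1.81). Hypoxia-responsive genes were higher in 12 of 12 and 11 of 13 (1.27 and 0.86), with Ero1l from 120.5 to 1024 CPM and from 116 to 647 CPM. Cholesterol synthesis genes were higher in 18 of 21 and 19 of 21 (0.87 and 0.66). Respiratory chain genes, already high on day 3, were higher in 31 of 39 and 37 of 39 (0.22 and 0.35), and Cox7a1 stood apart (4.11 and 3.71), a form of a respiratory chain subunit made in muscle and fat. Slc2a4 was at 60.6 and 47.3 CPM (2.55 and 2.06) and Klf15, a glucocorticoid-induced factor, at 51.6 and 50.9 CPM (2.48 and 2.56).

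Growth genes were lower on day 6. The S phase list was lower in 18 of 19 and 16 of 17 (medians -0.98 and -1.21), where 56.8% and 49.9% of all genes were higher. Dividing cells had been left out on both days, but that limit did not make the days equal. The 10 division genes summed to a median of 175 and 191 CPM in the chosen cells. In the day 6 cells past the Fabp4 limit the median was 50.9 and 48.4 CPM. Ccnd1 went from 46.6 to 10.8 CPM and from 47.9 to 18.3 CPM. S100a4 went from 208 to 56.0 CPM and from 372 to 57.5 CPM, and Ptn from 95.2 to 33.2 CPM and from 99.4 to 18.0 CPM. Among genes with 50 CPM or more on either day, the one lowest in both arms together was Map7d2, a microtubule protein (-3.24 and -2.84). Not all fibroblast genes were lower. Col1a1 was at 105 and 68.0 CPM on day 6 (1.23 and 1.04). The matrix list was higher in 12 of 19 in both arms (0.41 and 0.20), beside 56.8% and 49.9% of all genes, and nothing is read from that count.

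Of the 15 genes most uneven among the chosen cells on day 3, 6 were 2-fold higher and 3 were 2-fold lower on day 6 in the untreated arm, and 4 and 3 in the P-G3 arm. Over all genes 5.79% were 2-fold higher and 1.56% lower untreated, and 5.1% and 2.54% with P-G3. Without a size limit, 11 of the 15 were higher in each arm, where 56.8% and 49.9% of all genes were. The unevenness was measured in the same day 3 cells that enter the comparison of days, so these counts are a description.

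**Figure D5:**
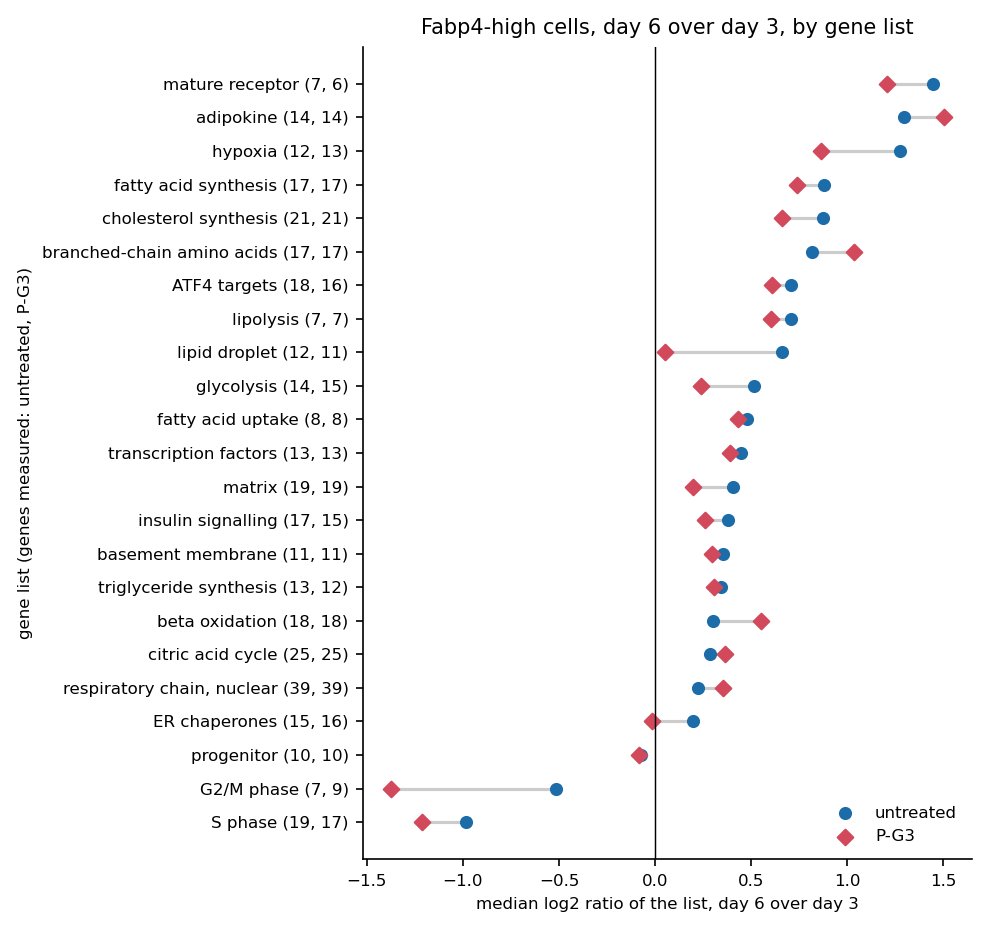
Median log2 ratio of day 6 over day 3 (horizontal) in non-dividing cells past the Fabp4 limit for each gene list (rows, with the genes measured in each arm), circles untreated and diamonds P-G3, 1 library per group and day. Lists hold genes with 20 CPM or more on either day, so members low on day 3 that passed only on day 6 had to lie right of zero. The S phase list lies left of zero (-0.98 and -1.21).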

How the data were processed

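Single-cell RNA libraries of 3T3-L1 cells were read from the deposited UMI count matrices, 1 for each of 5 groups, which the authors had already limited to called cells and had not normalized. The build is GRCm38, and 2 versions of Cell Ranger are on record, 3.1.0 per the submitters' processing notes and 5.0.1 per the file headers; which made the counts is uncertain. The labels' protocols name the 10x 3' v2 kit, but the barcodes look like those of v3, so the chemistry is uncertain too.

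Cells were kept and grouped by the limits given in the report. UMIs were summed per population and library and scaled to CPM. Before taking log2 ratios 1 CPM was added to each level, so differences of weakly expressed genes are understated, and genes with 20 CPM or more in either population were counted. The exact 95% intervals are Clopper-Pearson for shares and conditional binomial for plain ratios, and they cover counting error only. In the chosen cells 3 counts correspond to 0.172 CPM untreated and 0.0803 CPM with P-G3. Counts were thinned to 10000 UMIs per cell for shares of cells, spread and correlations. No doublet caller was run. Transcript lengths came from GENCODE vM21 for 32158 of 32285 genes, and a median per bin among 20 bins of length was subtracted where stated. TMM factors came from edgeR 4.0.16 in R 4.3.3, and the rest was computed in Python 3.11.15 with numpy 2.4.6, scipy 1.17.1 and pandas 2.3.3. The ratio and interval code was tested on simulated data.

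The cells, the 38 gene lists, 72 anchor genes and the alternatives were chosen with earlier results of these data known. Named genes are the anchors, the 10 highest and 10 lowest ratios per comparison among genes with 50 CPM or more and 1 direction whether scaled by totals, by TMM or by median of ratios (without mitochondrial, ribosomal protein and unnamed genes), the 2 to 4 largest members of each list, and the 15 most uneven genes. With 1 library per group no test was made.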

Additional observations from a re-analysis of the deposited data

Results flagged for a closer look

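Some barcodes left out by the limits carried as much Fabp4 as the chosen cells, a signal in data that the comparisons do not use. Among day 3 barcodes under 10000 UMIs, 54 of 203 untreated (26.6%, 95% interval 20.7% to 33.2%) and 99 of 218 with P-G3 (45.4%, 38.7% to 52.3%) had 16000 CPM or more of Fabp4, against 0 of 28 on day 0 (upper limit 12.3%). Their median was 5326 UMIs untreated and 5229 with P-G3, and 33 of the 54 and 88 of the 99 had under 1% mitochondrial UMIs. Fabp4 stood at 36115 and 36151 CPM in them. The nuclear RNA Malat1 stood at 583 and 64.9 CPM, against 3356 and 2761 CPM in the chosen cells, and Acsl1 at 1065 and 322 CPM. Among barcodes over 20% mitochondrial UMIs the limit was reached by 6 of 84 untreated (7.14%, 2.67% to 14.9%) and 6 of 47 with P-G3 (12.8%, 4.83% to 25.7%), against 0 of 33 on day 0 (upper limit 10.6%). These barcodes enter no value of the report.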

How the results depend on the processing

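The share of chosen cells followed the limits. In the untreated library it was 13.93% with a Fabp4 limit of 12000, 7.883% with 20000 and 8.575% without the 5% of cells with most UMIs, and with P-G3 it was 23.55%, 12.99% and 15.1%, so it was higher with P-G3 under each of these. Of the P-G3 comparison, genes 2-fold higher numbered 4 with the limit of 12000, 10 with TMM, 10 with median of ratios, 0 with a filter of 50 CPM, 7 with no filter and 4 with the mean of each cell's CPM. Genes 2-fold lower numbered 23 without the 5% of cells with most UMIs, 6 with TMM, 6 with median of ratios, 7 with a pseudocount of 5, 4 with the 50 CPM filter, 41 with no filter, 23 with the mean of cells and 7 after subtracting length bins. Settings chosen after seeing the data gave 6 higher and 28 lower genes from 16000 to 24000 CPM of Fabp4, 5 higher at 24000 or more and 13 higher in cells with 40000 to 90000 UMIs. Day 6 over day 3 in the untreated arm had 200 higher and 39 lower genes with the 50 CPM filter, and 665 and 239 with none. Against Fabp4-low cells, 301 were lower with the 50 CPM filter, and 769 were higher and 1397 lower with none. The balance of higher and lower genes turned with scaling, from 2 and 13 to 10 and 6 in the P-G3 comparison with TMM or median of ratios, and from 506 and 600 to 662 and 521 against untreated Fabp4-low cells with median of ratios. Of 76 named genes, 10 changed the sign of their P-G3 log2 ratio with TMM, 10 with median of ratios and 9 after subtracting length bins. The ratio left its counting interval for 75 of the 76 with TMM, 75 with median of ratios and 61 after subtracting length bins. Of the 5 named genes at 2-fold, 3 stayed there with TMM or median of ratios and 2 after subtracting length bins. No paired analysis was possible because each group has 1 library. With 1 library per group the difference between libraries and that between treatments or days cannot be told apart.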

Other observations

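Some day 3 cells reached the Fabp4 limit while carrying division genes past theirs. They were 39 of 615 dividing cells untreated (6.34%) and 69 of 719 with P-G3 (9.60%), with medians of 63388 and 78706 UMIs. Several adipocyte genes were lower in them than in the chosen non-dividing cells. Of the triglyceride assembly genes at 20 CPM or more in either, 3 of 12 were higher untreated (median log2 ratio -0.28, all genes 0.05) and 1 of 11 with P-G3 (-0.48, all genes 0.02). Over all genes 56.2% and 53.7% were higher. Agpat2 stood at 195 and 182.5 CPM (log2 ratio to the non-dividing cells -1.70 and -1.82). Mrap was at -1.78 and -1.57, Dgat2 at -1.65 and -1.54, Scd1 at -1.37 and -1.72 and Adipoq at -1.08 and -1.04. Both groups are past the same Fabp4 limit, but median Fabp4 was lower in the dividing cells (24388 and 21709 CPM) than in the chosen cells (26163 and 25430 CPM). The division genes that part the groups also define the dividing cells, so these are descriptions with no test.

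Keratin RNA was found in the chosen cells. Krt14, a keratin of basal skin cells, was lower in day 6 cells past the limit (8.91 and 7.23 CPM) than in the chosen day 3 cells (28.2 and 28.8 CPM). Krt19 was at 10.6 and 21.1 CPM on day 3 and at 15.3 and 13.5 CPM on day 6. Cells of intermediate Fabp4 level lay between the chosen and the Fabp4-low cells for Agpat2 (235 and 154 CPM), Gpd1 (24.9 and 16.1 CPM) and Scd1 (159.5 and 83.5 CPM).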
